A study of Mus musculus with 4 samples.

Results

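The Ikaros family of zinc finger transcription factors comprises 5 genes in the mouse: Ikzf1 (Ikaros), Ikzf2 (Helios), Ikzf3 (Aiolos), Ikzf4 (Eos) and Ikzf5 (Pegasus). The members were taken by their gene symbols, and all 5 were matched to an Ensembl identifier among the 39179 in the count files. All 5 were also among the 11702 genes that passed the filter on low counts and were tested. Their RNA was measured in ovalbumin-specific CD4 T cells carrying the transgenic OT-II receptor, which had been transferred into C57BL/6 mice that were then immunised under the skin with nitrophenol-coupled ovalbumin. On day 8 the donor cells (Thy-1.1+ CD44hi) of pooled inguinal lymph nodes were sorted by CXCR5 and PD-1. Double-positive cells are called Tfh, for T follicular helper, the helper cells of the germinal centre, and double-negative cells are called non-Tfh. Both groups thus share the receptor, the transfer and the immunisation, and differ in the sorting gate. Each group had 2 libraries, numbered T32 and T53 in both, and nothing in the labels tells what these numbers stand for, how many mice were pooled or whether libraries came from separate animals, so that the p-values cover just the spread among these 4 samples, which may be technical. Where RNA of sorted cell populations is compared, a change in the share of cells that express a gene and a change in RNA per cell cannot be told apart.

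Ikaros proteins bind DNA through a cluster of Cys2His2 zinc fingers near the N-terminus and pair with each other through zinc fingers at the C-terminus. Depending on the partners they recruit, such as the NuRD deacetylase and remodelling complex, they repress or activate their targets. Ikaros is required for lymphocyte development, Aiolos is abundant in mature B cells and in some helper T cells, and Helios and Eos are best known from regulatory T cells (Treg), while Pegasus recognises a different DNA sequence from the other members.

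The coding stretches of a DNA-binding finger and of a pairing finger are shown because they mark the family out and separate Ikzf5 from the rest. They were read from the longest GENCODE coding transcript with a consensus coding entry, 5′ to 3′, and capitals mark the codons of the cysteines and histidines that hold the zinc. The finger pattern was found 4 times near the N-terminus in Ikzf1, Ikzf2, Ikzf3 and Ikzf4, and 3 times in Ikzf5, and 2 times near the C-terminus in all 5. The N-terminal finger counted as number 2 spans codons 147 to 167 in Ikzf1, 142 to 162 in Ikzf2, 147 to 167 in Ikzf3, 189 to 209 in Ikzf4 and 112 to 132 in Ikzf5:
Ikzf1: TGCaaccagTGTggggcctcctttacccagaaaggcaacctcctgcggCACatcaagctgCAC
Ikzf2: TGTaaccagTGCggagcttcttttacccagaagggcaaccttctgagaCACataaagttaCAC
Ikzf3: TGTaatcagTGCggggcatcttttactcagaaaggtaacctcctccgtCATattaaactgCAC
Ikzf4: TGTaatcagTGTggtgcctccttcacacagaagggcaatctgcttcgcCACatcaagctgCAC
Ikzf5: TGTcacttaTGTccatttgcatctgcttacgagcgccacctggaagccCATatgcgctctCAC

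Among Ikzf1 to Ikzf4 this finger differed at 10 to 15 of 63 bases between any pair of genes (76.2 to 84.1% identical), and none of the 21 codons encoded another residue. Against Ikzf5 it differed at 33 to 37 bases, and 16 of 21 codons encoded another residue. Fingers were matched by their number, and Ikzf5 has 3 in place of 4, so its number 2 need not be the counterpart of the others. The best match of any N-terminal finger of Ikzf5 was its number 1 with number 3 of Ikzf2, at 65.1% identical bases. For comparison, finger 1 of Ikzf3 was 63.5% identical to that of Ikzf1 and of Ikzf2, with 5 and 4 codons encoding another residue.

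The first C-terminal finger is shown for 3 members and spans codons 460 to 480 in Ikzf1, 473 to 493 in Ikzf2 and 366 to 386 in Ikzf5:
Ikzf1: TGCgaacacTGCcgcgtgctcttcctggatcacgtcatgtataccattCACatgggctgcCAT
Ikzf2: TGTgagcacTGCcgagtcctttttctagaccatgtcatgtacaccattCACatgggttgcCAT
Ikzf5: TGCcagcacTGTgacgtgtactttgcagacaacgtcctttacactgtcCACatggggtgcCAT

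Ikzf1 and Ikzf2 were 82.5% identical here, with 11 of 63 bases differing and 0 of 21 codons encoding another residue. Ikzf5 was 68.3% identical to each of them, with 20 bases differing and 7 codons encoding another residue. Over all pairs among Ikzf1 to Ikzf4, 0 to 4 of the 21 codons encoded another residue, against 7 to 9 in pairs with Ikzf5.

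In Tfh cells Ikzf2 and Ikzf3 were each more than 3 times as high as in non-Tfh cells, and these were the members that passed the test. Ikzf1, the most abundant member in every library, was 1.32-fold higher in Tfh cells, while Ikzf4 was 4.83-fold lower and Ikzf5 was 1.26-fold lower. None of these 3 passed in the fit with group as the only term. With the library number added as a block, Ikzf1 and Ikzf4 passed. Of 11702 genes tested with edgeR's quasi-likelihood test, 8.49% passed at an adjusted p of 0.05 (4.47% as higher in Tfh cells and 4.02% as lower). In the family 2 members were higher and 0 lower. At an unadjusted p under 0.05 there were 3 higher and 1 lower, and DESeq2 and limma-voom, like edgeR, called 2 higher and 0 lower. The median log2 fold change of the 5 members was 0.40, beside -0.0054 over all genes tested. For all 5 members the groups did not overlap, with 3 higher and 2 lower in Tfh cells, but with 2 libraries a group this held for 52.2% of all genes tested (26.6% higher and 25.6% lower).

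**Figure D1:**
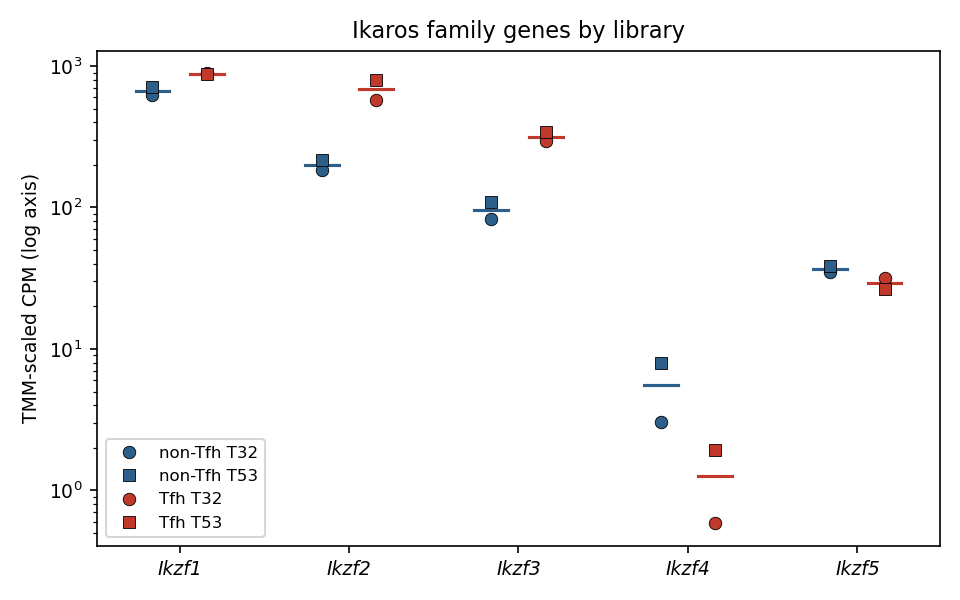
Level of each Ikaros family gene in each of the 4 libraries, as counts per 1000000 (CPM) after TMM scaling, on a log axis; circles are T32 libraries, squares T53 libraries, blue non-Tfh and red Tfh, and bars are group means. Ikzf2 and Ikzf3 lie higher in both Tfh libraries, Ikzf4 is the least abundant member and lies lower in both Tfh libraries.

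Ikzf2 encodes Helios, a factor that stabilises regulatory T cells and is also induced in activated helper cells (ENSMUSG00000025997, GRCm38 chromosome 1, 69531214 to 69687245, minus strand). It measured 578 and 793 CPM in the Tfh libraries T32 and T53, against 185 and 216 CPM in the non-Tfh libraries T32 and T53. CPM are counts per 1000000 counts of the library after TMM scaling, and 1 count was worth 0.0745 to 0.175 CPM. The lower Tfh library lay well above the higher non-Tfh library, and the Tfh libraries stood further apart from each other than the non-Tfh libraries did. The group means were 685 CPM ± 152 and 201 ± 21.5 (SD, n = 2 each), a log2 fold change of 1.77 ± 0.19 (SE, edgeR adjusted p = 0.00439). The call was kept with each library left out in turn, with log2 fold changes from 1.54 to 1.99.

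Ikzf3 encodes Aiolos, a close relative of Ikaros that is known from B cells and is also found in Tfh and Th17 cells (ENSMUSG00000018168, chromosome 11, 98464902 to 98546031, minus strand). It measured 295 and 339 CPM in the Tfh libraries T32 and T53, against 82.5 and 110.0 CPM in the non-Tfh libraries T32 and T53. Again both Tfh libraries were above both non-Tfh libraries, with a gap far wider than the spread within either group. The log2 fold change was 1.72 ± 0.17 (SE, edgeR adjusted p = 0.00359), from 96.3 CPM ± 19.5 to 317 ± 31.1 (SD, n = 2 each). With a library left out it ran from 1.53 to 1.94, and the call was kept each time.

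Aiolos is abundant in B cells, so 10 B cell markers were set beside Ikzf3, and their summed level was 141 to 145 CPM in Tfh and 11.7 to 19.8 CPM in non-Tfh libraries. In Tfh cells nearly all of it was Cd22, a surface molecule, at 137 CPM ± 3.54, against 12.2 ± 3.70 in non-Tfh cells. Pax5 measured 5.18 CPM ± 0.0914 in Tfh and 0.225 ± 0.318 in non-Tfh cells. These were the only 2 of the list that could be tested, and both passed as higher in Tfh cells (edgeR adjusted p = 0.000727 and 0.0238). The B cell markers Ebf1 and Blk had 0 counts in both Tfh libraries, which allows up to 0.251 CPM in T32 and 0.524 CPM in T53 (3 counts, counting error only). Cd79a and Ms4a1 had 1 count each in Tfh T32 and 0 in Tfh T53. Cd79b had 0 and 4 counts in Tfh T32 and T53, and Cr2 had 3 in each. Of the 10 B cell markers 5 and 4 had a count in Tfh T32 and T53, and 4 and 9 in non-Tfh T32 and T53. The part that B cells had in the level of Ikzf3 was not tested.

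Ikzf1 encodes Ikaros, the founding member (ENSMUSG00000018654, chromosome 11, 11685003 to 11772926, plus strand). It measured 889 and 874 CPM in the Tfh libraries T32 and T53, against 621 and 712 CPM in the non-Tfh libraries T32 and T53. The Tfh libraries were nearly level and both lay above the non-Tfh libraries, but the difference was small. The log2 fold change of 0.40 ± 0.14 (SE) did not pass (edgeR unadjusted p = 0.0248, adjusted p = 0.147), and the means were 882 CPM ± 10.7 and 666 ± 64.2 (SD, n = 2 each).

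Ikzf4 encodes Eos, a partner of Foxp3 and of the corepressor CtBP1 in regulatory T cells (ENSMUSG00000002578, chromosome 10, 128630843 to 128645991, minus strand). It was the least abundant member, with 7 and 11 counts in Tfh T32 and T53 and 41 and 71 in non-Tfh T32 and T53. In CPM, in this order, these were 0.586, 1.92, 3.05 and 7.98, so that the groups did not overlap but libraries of 1 group differed by more than 2-fold. The log2 fold change of -2.27 ± 0.72 (SE) did not pass (edgeR adjusted p = 0.126). Its size depended on single libraries: without Tfh T32 it was -1.49, without non-Tfh T53 -1.44, without Tfh T53 -3.17 and without non-Tfh T32 -2.83. Between libraries of the same number the log2 ratio of Tfh to non-Tfh varied less, at -2.38 for T32 and -2.05 for T53.

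Markers of regulatory T cells other than Ikzf2 and Ikzf4 were set beside both genes. The summed level of the 13 markers was 632 to 665 CPM in Tfh and 633 to 691 CPM in non-Tfh libraries. Izumo1r alone measured 308 CPM ± 76.9 in Tfh and 178 ± 2.36 in non-Tfh cells, so the sums hide how the other markers moved. Among 11 tested, Il2ra and Itgae fell and Izumo1r rose in edgeR, the last narrowly (adjusted p = 0.0493). The median log2 fold change was -0.58, with 5 positive and 6 negative. At an unadjusted p under 0.05 there were 1 higher and 5 lower. DESeq2 called 1 higher and 3 lower, and limma-voom 0 higher and 2 lower. Foxp3, which defines the lineage, had 0 and 1 counts in the Tfh libraries and 13 and 22 in the non-Tfh libraries, a pooled ratio of 27.7 in favour of non-Tfh cells (95% counting interval 4.65 to 1125, exact binomial). Foxp3 did not pass the test either (edgeR adjusted p = 0.0601), and like Ikzf4 it had its lower values in both Tfh libraries. At so few counts its fitted log2 fold change of -4.57 moved to -3.16 without Tfh T32 and to -7.25 without Tfh T53, and it passed without non-Tfh T32 (adjusted p = 0.0428) and with no count filter (0.000119). The part that regulatory T cells had in the levels of Ikzf2 and Ikzf4 was not tested.

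Ikzf5 encodes Pegasus, the most divergent member by sequence (ENSMUSG00000040167, chromosome 7, 131388652 to 131410521, minus strand). It measured 31.5 and 26.7 CPM in the Tfh libraries T32 and T53, against 35.2 and 38.8 CPM in the non-Tfh libraries T32 and T53. The values did not overlap between groups, but the gap between them was smaller than the distance between the Tfh libraries. The log2 fold change of -0.34 ± 0.15 (SE) did not pass (edgeR adjusted p = 0.256). Of its 5721 exonic bases, 4652 overlap exons of Pstk on the opposite strand, and whether counting used strand is not given in the sources used here. Whether reads from these shared bases were counted for Ikzf5, for Pstk or for neither is thus not known. Pstk had 63 to 157 counts and a log2 fold change of -0.083 ± 0.196 (SE, adjusted p = 0.863).

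To compare members with each other, CPM were divided by the merged exon length in kb (5777 bases for Ikzf1, 11613 for Ikzf2, 8754 for Ikzf3 and 5995 for Ikzf4). On this scale the order was Ikzf1, Ikzf2, Ikzf3, Ikzf5 and Ikzf4 in each of the 4 libraries. Within each group no neighbours in this order overlapped. The order of Ikzf2 and Ikzf3 rests on the choice of length. With the longest transcript as length (9278 and 4607 bases) it was not the same in every library. Their mean shares of the family's summed level were then 22.9 and 21.5% in Tfh and 11.9 and 11.5% in non-Tfh cells. With merged exons, Ikzf1 ranged from 108 to 154 CPM per kb and was above 97.9 to 98.9% of the tested genes in its library. Ikzf2 was above 77.5 and 81.9% of the tested genes in the non-Tfh libraries and above 94.5 and 96.5% in the Tfh libraries. Ikzf3 was above 61.8 and 71.9% in the non-Tfh libraries and above 90.7 and 92.9% in the Tfh libraries. Ikzf5 stood near the middle, above 40.7 to 51.9%, and Ikzf4 near the bottom, above 1.33 to 16.7%. The place of Ikzf5 is limited by the bases it shares with Pstk, whose counting is not known.

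Summed over the 5 members the level was 253 CPM per kb ± 14.4 in Tfh and 151 ± 16.2 in non-Tfh cells (SD, n = 2 each), a ratio of 1.68. Of the difference of 102 CPM per kb between the group means, Ikzf2 made up 40.9%, Ikzf1 36.5% and Ikzf3 24.7%, while Ikzf4 and Ikzf5 counted against it, at -0.696 and -1.35%. In CPM per kb Ikzf1 measured 154 and 151 in Tfh T32 and T53 and 108 and 123 in non-Tfh T32 and T53, and Ikzf2 measured 49.8 and 68.3, and 15.97 and 18.6. Which of these genes added more thus depends on the libraries set against each other, and without division by length the means differed more for Ikzf2 than for Ikzf1.

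**Figure D2:**
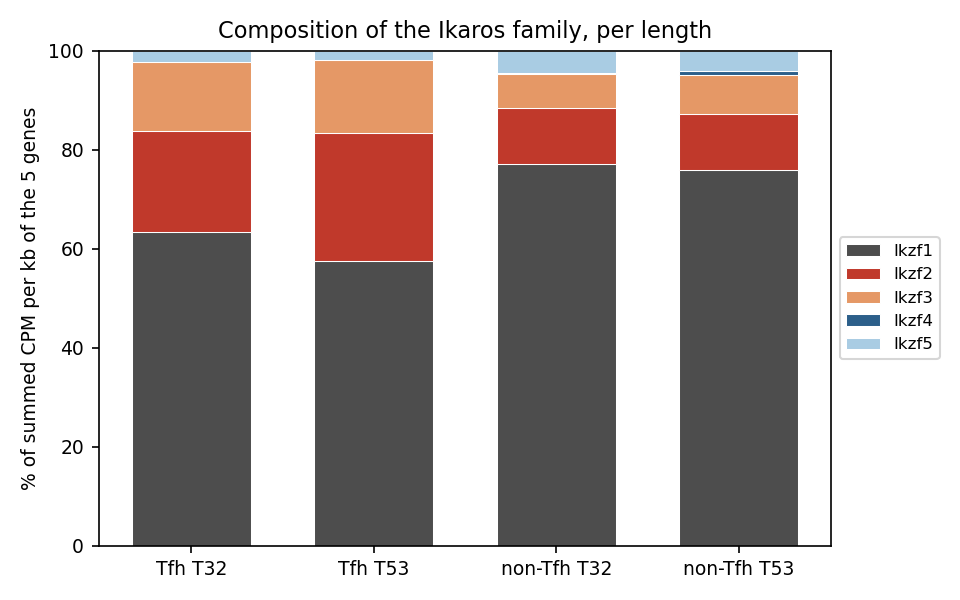
Share of each gene in the summed level of the 5 Ikaros family genes, in percent of CPM per kb of merged exons, for each library. The share of Ikzf1 is 57.5 to 63.3% in Tfh and 75.8 to 77.0% in non-Tfh libraries, and the shares of Ikzf2 and Ikzf3 are correspondingly larger in the Tfh libraries.

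The make-up of the family differed between the groups. Ikzf1 made up 63.3 and 57.5% of the summed level in Tfh T32 and T53, against 77.0 and 75.8% in the non-Tfh libraries T32 and T53. Ikzf2 made up 20.5 and 25.9% in Tfh T32 and T53 and 11.4% in both non-Tfh libraries. Ikzf3 made up 13.9 and 14.7% in Tfh T32 and T53, and 6.75 and 7.74% in non-Tfh T32 and T53. Neither set of shares overlapped between groups, and since an exact two-sided permutation test of 2 libraries against 2 cannot go below p = 0.333, the shares are given as a description.

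Ikzf2 and Ikzf3 kept their proportion to each other while both gained on Ikzf1. The ratio of Ikzf2 to Ikzf3 per length was 1.48 and 1.76 in Tfh T32 and T53 and 1.70 and 1.48 in non-Tfh T32 and T53, with full overlap of the groups. The ratio of Ikzf2 to Ikzf1 was 0.323 and 0.451 in Tfh T32 and T53, against 0.149 and 0.151 in non-Tfh T32 and T53. The ratio of Ikzf3 to Ikzf1 was 0.219 and 0.256, against 0.0876 and 0.102 in the same order.

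**Figure D3:**
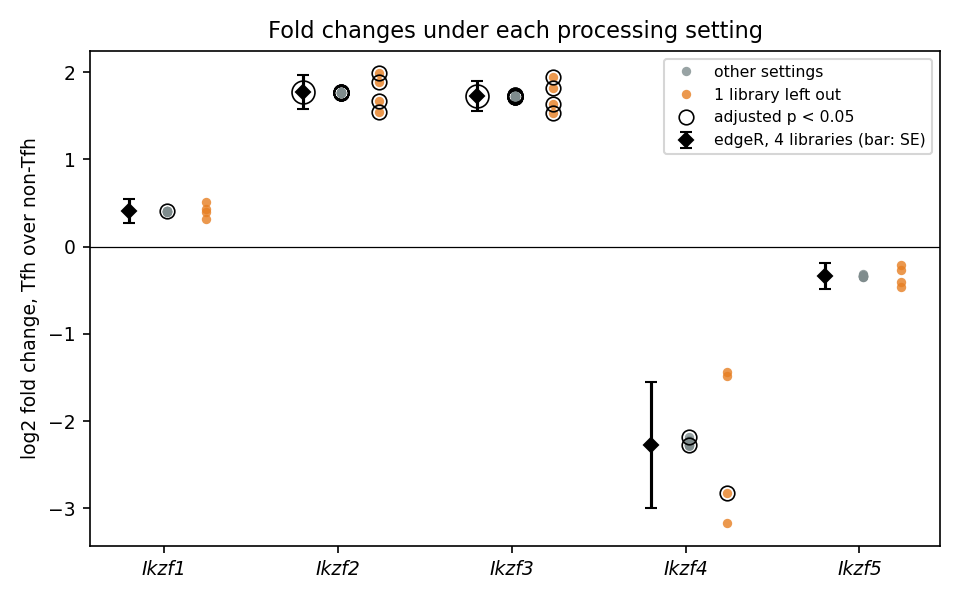
log2 fold change (Tfh over non-Tfh) of each Ikaros family gene from edgeR with all 4 libraries (black, bar ± SE), under other scalings, filters and tests (grey) and with 1 library left out (orange); open circles mark an adjusted p under 0.05. Ikzf2 and Ikzf3 pass under every setting shown, and Ikzf4 moves between -1.44 and -3.17 as single libraries are left out.

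Counts per gene merge all transcripts of a locus, and Ikaros forms that lack DNA-binding fingers are known to act against the full-length protein. Of 6 Ikzf2 transcripts with a complete annotated coding sequence, 2 encode all 4 N-terminal fingers and the shortest set is 1 finger. Of 4 such Ikzf1 transcripts 2 encode all 4 fingers and the fewest is 3. The single complete Ikzf3 transcript and all 3 of Ikzf4 encode 4. The files hold 1 count per gene, so which transcripts the higher counts of Ikzf2 came from is not resolved.

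None of the 6 neighbouring coding genes that could be tested passed. The coding genes nearest to Ikzf2, Erbb4 at 423 kb and Spag16 at 139.7 kb, had 0 counts in all 4 libraries. Annotated non-coding genes overlap Ikzf2, with 144 shared exonic bases for the one on the opposite strand. They were not among the counted identifiers. Ikzf3 lies 9.53 kb from Grb7 and 5.07 kb from Zpbp2, which measured 0 to 1.27 and 0.819 to 1.57 CPM and were too low to be tested. Beside Ikzf1, Fignl1 at 14.5 kb had a log2 fold change of 0.12 ± 0.49 (SE, adjusted p = 0.925) and 4930512M02Rik at 57.2 kb one of -0.022 ± 0.505 (adjusted p = 0.988). Beside Ikzf4, the ribosomal protein gene Rps26 at 4.10 kb had -0.30 ± 0.19 (SE, adjusted p = 0.437) and the sulfite oxidase gene Suox at 23.9 kb had -0.76 ± 0.28 (adjusted p = 0.172). Acadsb, an acyl-CoA dehydrogenase gene that starts 79 bases from Ikzf5 on the opposite strand, had -0.20 ± 0.20 (SE, adjusted p = 0.624), and 2310057M21Rik at 25.9 kb had 0.0097 ± 0.252 (adjusted p = 0.989).

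Likeness to other genes was measured as the root mean square difference of centred log2(CPM + 0.5) over the 4 libraries, among 9515 tested genes that averaged 5 CPM or more. Nearest to Ikzf2 were Lpp (0.0691), Asap2 (0.0718) and Gadd45a (0.0757), and nearest to Ikzf3 were Arc (0.0244), Trerf1 (0.0348) and Slc26a11 (0.0601). The Ikzf2 and Ikzf3 profiles differed from each other by 0.115, less than any other pair of members. Nearest to Ikzf1 were Natd1, Ptpn4 and Naa80, at 0.00593 to 0.0170, and nearest to Ikzf5 were E430018J23Rik, C87436 and Ifnar1, at 0.0157 to 0.0176. Ikzf4 had no close match; Hip1 (0.165) and Bcl2l11 (0.202) were among its nearest 3. With 4 libraries in 2 groups many genes can come this close.

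No gene of the 3 lists of partner and control proteins passed the test. Of 13 subunits of the NuRD complex, all tested, 0 passed edgeR's test; 1 had an unadjusted p under 0.05, DESeq2 called 1 and limma-voom 0, and the median log2 fold change was 0.087. The gene DESeq2 called was Chd3, the remodelling ATPase Mi-2alpha, at 554 CPM ± 7.21 in Tfh and 745 ± 71.4 in non-Tfh cells (log2 fold change -0.43 ± 0.14 SE, edgeR adjusted p = 0.123, DESeq2 0.0348). Its relative Chd4, or Mi-2beta, the main NuRD ATPase of T cells, measured 718 CPM ± 6.55 and 660.2 ± 10.8 (0.12 ± 0.13, adjusted p = 0.655).

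Of 15 SWI/SNF subunits and other corepressor partners, 14 were tested and 0 passed; 0 had an unadjusted p under 0.05, and DESeq2 and limma-voom each called 0 (median 0.065). The SWI/SNF ATPase Smarca4 had a log2 fold change of 0.014 ± 0.111 (SE, adjusted p = 0.966), and the nuclear receptor corepressor Ncor1 -0.065 ± 0.138 (adjusted p = 0.844). The member that was not tested, Ctbp2, had 0 counts in both Tfh libraries and 12 and 1 in non-Tfh T32 and T53, while Ctbp1 measured 146 CPM ± 3.80 and 136 ± 5.87.

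Ikaros and Aiolos are degraded through the ubiquitin ligase with the receptor cereblon when thalidomide-like drugs are present, and Ikaros is phosphorylated by casein kinase 2 and dephosphorylated by protein phosphatase 1. Of 11 genes for these proteins 0 passed in edgeR, DESeq2 or limma-voom, and 0 had an unadjusted p under 0.05 in edgeR (median 0.061). Crbn, which encodes cereblon, measured 118 CPM ± 0.392 in Tfh and 112 ± 7.29 in non-Tfh cells. The ligase adaptor Ddb1 (0.014 ± 0.136) and the phosphatase subunit Ppp1ca (0.061 ± 0.17) were the most abundant of the list.

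**Figure D4:**
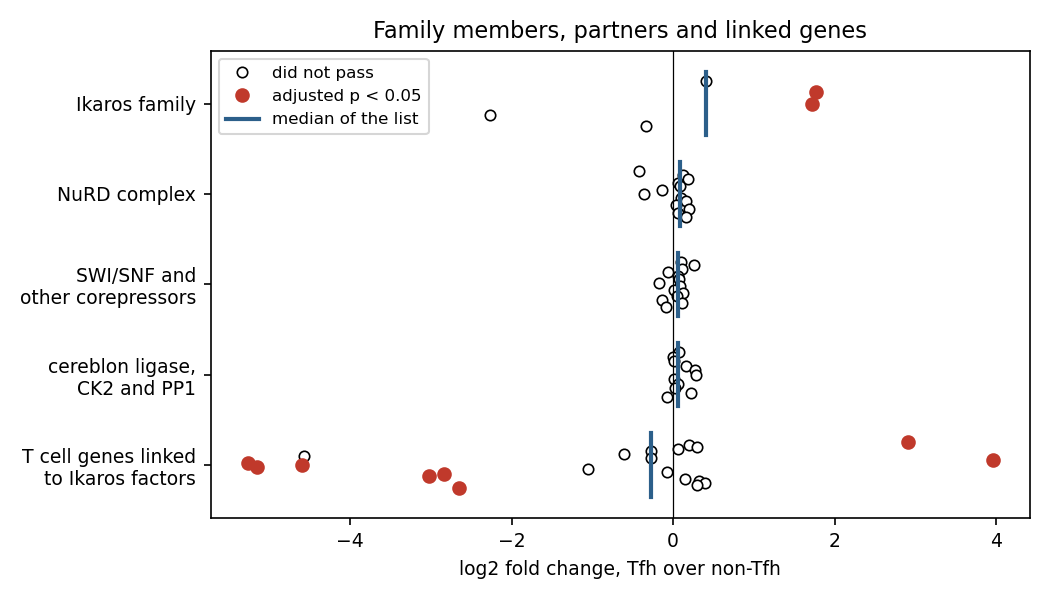
log2 fold change (Tfh over non-Tfh) of each tested gene in the Ikaros family and in 4 lists of linked genes; filled red circles passed an adjusted p of 0.05, open circles did not, and blue bars are list medians. Genes of the 3 partner lists lie between -0.43 (Chd3) and 0.29 (Cul4b), while the T cell genes spread to both sides.

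Of 27 T cell genes reported to be bound or controlled by Ikaros factors, 21 were tested, and 2 rose and 6 fell in Tfh cells (median log2 fold change -0.27). These are 38.1% of those tested, beside 8.49% of all genes tested. DESeq2 called 2 higher and 8 lower, and limma-voom 2 higher and 4 lower. Without Tfh T53 the number called was 5 in place of 8. The direction in which each factor acts on these genes differs between cell types, so the counts describe the list only. Bcl6, the Tfh regulator that Ikaros and Aiolos are reported to induce, rose by 2.91 ± 0.22 on the log2 scale (SE, adjusted p = 0.00187), from 40.1 CPM ± 7.33 to 301 ± 73.1. Hes1, a Notch target that Ikaros represses in the thymus, rose by 3.96 ± 0.55 (SE, adjusted p = 0.0102), from 0.317 CPM ± 0.289 to 5.61 ± 0.225, and by 5.47 without non-Tfh T32.

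Il7r, the receptor for IL-7 and a gene that Ikaros controls, had 203 CPM ± 30.7 in non-Tfh and 6.30 ± 4.18 in Tfh cells. Its log2 fold change was -5.15 ± 0.44 (SE, adjusted p = 0.00581). It was -4.45 without Tfh T32 and -5.90 without Tfh T53, and with either non-Tfh library left out it no longer passed (adjusted p = 0.0661 without T32 and 0.113 without T53). Il2ra, a chain of the IL-2 receptor, had a log2 fold change of -4.59 ± 0.38 (SE, adjusted p = 0.00266), and Il17a, a Th17 cytokine gene, had 1 count summed over the Tfh libraries and 55 over the non-Tfh libraries (pooled ratio 43.5, counting interval 7.49 to 1750). Prdm1 and Tbx21, regulators of fates other than Tfh, fell as well (edgeR adjusted p = 0.0188 and 0.0366). With a library left out their log2 fold changes ran from -4.18 to -2.37 for Prdm1 and from -3.91 to -2.17 for Tbx21, and both were farthest from 0 without Tfh T32. Tbx21 did not pass in limma-voom (adjusted p = 0.065). Of the 8 calls 4 (Bcl6, Prdm1, Hes1 and Il2ra) were kept with each library left out, and Il17a lost its call without either Tfh library and Tbx21 without Tfh T53 or non-Tfh T53. Il2, which Ikaros and Aiolos silence, was too low to be tested, with 5 and 1 counts in Tfh T32 and T53 and 6 and 21 in non-Tfh T32 and T53.

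The libraries held 5725358 to 13360563 counts. The sorting genes Cxcr5 and Pdcd1 were 13.4-fold and 10.1-fold higher in Tfh cells, where the sort selected on the 2 proteins. T cell markers were present in all libraries, summing to 7684 to 9281 CPM, and markers of granulocytes and red cells to at most 0.112 CPM. Macrophage markers summed to 2.61 to 7.19 CPM and dendritic cell markers to 2.60 to 6.74 CPM. Both sums were highest in non-Tfh T53, where 7 of 7 macrophage markers had a count. Plasma cell markers summed to 74.8 to 90.2 CPM, nearly all of it Xbp1. Stromal markers summed to 212 to 237 CPM, nearly all of it Pecam1. Among 9 T cell markers Thy1 was 2.51-fold lower in Tfh cells (edgeR adjusted p = 0.00244). The 5 natural killer cell markers summed to 50.4 and 58.5 CPM in Tfh and 25.8 and 34.7 CPM in non-Tfh libraries. Klrb1c rose 3.12-fold, and Ncr1 and Klra8 had 0 counts in all 4 libraries. Eomes, with 2 and 2 counts in Tfh and 27 and 13 in non-Tfh T32 and T53, fell in edgeR (adjusted p = 0.0390). DESeq2 and limma-voom each called 0 markers of this list lower. Gzma had 67 and 5 counts in Tfh and 55 and 186 in non-Tfh T32 and T53, and did not pass (edgeR adjusted p = 0.430). The part of these differences in the members' levels was not tested. Without Tfh T53 the number of genes called fell from 523 to 298 higher and from 471 to 247 lower.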

How the data were processed

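Sorted Tfh and non-Tfh cells were measured by stranded total RNA sequencing, 2 libraries each. The authors deposited raw counts for each Ensembl gene. TopHat2, Bowtie2, HTSeq and GRCm38 (mm10) are named in the submitters' processing notes; versions, annotation release and strand setting are not given in the sources used here. Symbols, positions, exon lengths and coding sequences came from GENCODE M21 (GRCm38), which matched 37693 of 39179 identifiers; the other 1486 held 0.209 to 0.228% of counts and stayed in the totals.

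All genes were fitted in edgeR 4.0.16 (R 4.3.3): filterByExpr, TMM scaling, robust quasi-likelihood test with group as the only term, 2 residual degrees of freedom, two-sided, Benjamini-Hochberg adjustment over 11702 genes at 0.05. Each SE was derived from F and the log2 fold change and adds nothing to the test. Alternatives used DESeq2 1.42.0 and limma 3.58.1 (voom), other scalings and filters, a replicate block, and each library left out. Where an arm then held 1 library, it was assumed to vary like the other arm.

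On simulated counts the fit recovered large changes more often than small ones, and the share of false calls was above the nominal level.

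Members and lists were chosen with earlier results of these data known. Named genes were the members, the sorting genes, their nearest coding neighbours, the 3 most alike genes per member, and per list up to 4 called genes with the largest change (mean of at least 1 CPM) or the 2 most abundant. One gene alike to Ikzf4 has no symbol and is not named. Bcl6, Prdm1, Tbx21, Il2, Crbn, Ctbp1, Ctbp2, Pstk, Foxp3, Eomes, Gzma, Ncr1 and Klra8 were named after their values were seen. So were the named B cell markers other than Cd22 and Pax5. Zinc fingers were found in translated coding sequences (C-x2-C-x12-H-x3 to x5-H or C) with Biopython 1.88, and figures drawn with matplotlib 3.10.9. Some values are not reported here.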

Additional observations from a re-analysis of the deposited data

How the results depend on the processing

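Ikzf2 and Ikzf3 kept their direction and call under all 13 alternatives, with log2 fold changes of 1.54 to 1.99 and 1.53 to 1.94. Of 64 member values under alternatives none turned and 4 gained a call. The labels do not tell whether libraries of the same number are paired, and the main fit did not use the number. T32 minus T53 differences correlated at 0.368 between groups over genes, so libraries of the same number deviated partly together. With the number as a replicate block in edgeR, Ikzf1 (0.41, adjusted p = 0.0337) and Ikzf4 (-2.18, adjusted p = 0.00645) passed, so that 1 member was called lower. With it Foxp3 passed as well (adjusted p = 0.0129) and Tbx21 no longer did (0.0652). That block called 1069 genes higher, 1051 lower and 2 NuRD genes. Without a count filter the calls were 1006 higher and 980 lower, with Ikzf4 (-2.28) as 1 member lower and 1 corepressor gene called. DESeq2 called 1 NuRD gene. With a library left out, genes called ranged from 298 to 454 higher and 247 to 435 lower, members called lower from 0 to 1 (Ikzf4, -3.17 to -1.44), and linked T cell genes called from 5 to 10. The log2 fold changes of Ncor1 (-0.138 to 0.022), Ddb1 (-0.111 to 0.155) and Ppp1ca (-0.126 to 0.282), none called, changed sign in these fits. Ikzf4 could not be fitted under the filter of at least 5 CPM. With the longest transcript as length the mean share of Ikzf1 was 53.4% in Tfh and 71.4% in non-Tfh cells. That of Ikzf2 was 22.9 and 11.9%, and that of Ikzf3 21.5 and 11.5%, with their order not the same in every library. With no length the shares were 46.3 and 66.3% for Ikzf1, 35.6 and 20.0% for Ikzf2 and 16.6 and 9.52% for Ikzf3. The causes were not tested, apart from the lengths themselves and the fewer libraries or genes. Few counts limit Ikzf4, with 7 in its lowest library, Tfh T32, which held 12354113 counts in all.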
